A study of Homo sapiens with 24 samples.

Results

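The ATF4 amino acid response was described here through 37 genes in newly made RNA of U2OS cells, a human osteosarcoma cell line. The genes were taken by name as ATF4 and its relatives, known ATF4 targets, amino acid transporters and tRNA synthetases. The rule uses no measured value, but the list was chosen with earlier results of these data known. Each of the 37 names matched 1 gene among the 61533 of the count table, and all 37 passed the filter on low counts that left 23651 genes for testing. The cells carried 1 of 3 forms of the glucocorticoid receptor (GR) with a C-terminal HaloTag: wt GR, the K492A mutant called SoF (separation of function), or the R470A mutant called Ctrl. Both mutations lie in or beside the DNA-binding domain. The study made SoF GR to lower RNA binding and used Ctrl GR to match a loss of DNA binding. Dishes of each line were kept with dexamethasone (100 nM) over 1, 2 or 3 h, or with ethanol (0.01%) in its place (called 0 h), with 2 libraries for each of the 12 groups and 24 in all. In every dish 200 µM 4-thiouridine (4sU) was present for the last 1 h, and the labelled RNA was pulled down and sequenced, so the values describe RNA labelled in that hour rather than the standing pool.

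Several features of the design limit what the groups stand for. Each line was 1 stable pool, made by PiggyBac insertion of a CMV-driven construct into cells with little GR of their own and sorted to match nuclear GR, so that a difference between receptors and a difference between pools cannot be told apart. The medium was changed when dexamethasone or ethanol was added, and how long the ethanol dishes were kept is not given in the sources used here, so time in dexamethasone and time since fresh medium cannot be told apart. Nothing in the labels says that replicates came from separate cultures, and p-values measure only the spread between these libraries. By the study's methods, the replicates of a sample went through biotinylation and pulldown as a pair. The spread within a group may thus leave out variation between pulldowns, and a difference between groups may include it. The libraries held 8106036 to 15820806 deduplicated counts over genes, and the 37 genes took 0.477% to 0.634% of them. Of the markers that go with the osteosarcoma label, VIM stood at 664, COL1A1 at 561, RUNX2 at 102 and ALPL at 23.3 mean CPM (counts scaled to the library total, with edgeR's TMM factors). TWIST1, SP7, CD3E, KRT20 and ALB never passed 0.172 CPM, and BGLAP, PTPRC, EPCAM, PECAM1, CDH5 and APOA1 had means of 0.154 to 2.01 CPM. SP7 and TWIST1, which mark osteoblasts and mesenchyme, were thus at or near 0.

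ATF4 is the transcription factor of the integrated stress response. When amino acids run short, or when proteins misfold in the endoplasmic reticulum, kinases phosphorylate the initiation factor eIF2, general translation falls and the ATF4 messenger is translated more, so ATF4 activity is set largely at translation and the level of its RNA says little about the protein. ATF4 binds with C/EBP-family partners at C/EBP-ATF response elements (CARE) and turns on genes that make, import and charge amino acids, together with factors such as DDIT3 and TRIB3 that end or redirect the response.

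The promoters were read first, since a CARE core (TGATGNAA, searched on both strands) is what many of these genes are known to share. RefSeq promoter windows, each 300 bases from 250 before to 50 after an annotated start on GRCh38.p14, were present for 30 of the 37 genes. The 7 without one were PSPH, SHMT2, LARS1, NUPR1, YARS1, SLC7A11 and PYCR1. The core was found for 13 of these 30 genes (43.3%), against 1217 of 27305 genes in the whole table (4.46%). Counted by window, 13 of 47 windows held it (27.7%), against 3.62% of all 35116. The 13 genes were CHAC1, ASNS, SLC3A2, SLC7A1, SLC1A5, SLC1A4, GARS1, MARS1, AARS1, NARS1, TARS1, CARS1 and IARS1, which is 4 of the transporters, 7 genes of tRNA charging and 1 each of the effectors and the synthesis enzymes. A match or its absence in these windows is a description of the letters and says nothing of what binds. The markers ASNS, CHAC1 and TRIB3 are shown as markers of this response, and SLC7A1, SLC1A5 and SLC1A4 as the first transporters with a core in the printed stretch, which runs from 250 bases before to 30 after the start. The core is in capitals, on the printed strand as TGATGNAA or on the other as TTNCATCA. The core of SLC3A2 lay further in and is not printed.
ASNS (chr7:97872379-97872658, minus strand): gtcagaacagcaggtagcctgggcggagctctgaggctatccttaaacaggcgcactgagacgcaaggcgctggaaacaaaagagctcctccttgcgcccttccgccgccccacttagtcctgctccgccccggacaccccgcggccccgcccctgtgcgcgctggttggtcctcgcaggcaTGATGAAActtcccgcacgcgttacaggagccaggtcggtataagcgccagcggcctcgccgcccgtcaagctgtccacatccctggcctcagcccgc
CHAC1 (chr15:40953221-40953500, plus strand): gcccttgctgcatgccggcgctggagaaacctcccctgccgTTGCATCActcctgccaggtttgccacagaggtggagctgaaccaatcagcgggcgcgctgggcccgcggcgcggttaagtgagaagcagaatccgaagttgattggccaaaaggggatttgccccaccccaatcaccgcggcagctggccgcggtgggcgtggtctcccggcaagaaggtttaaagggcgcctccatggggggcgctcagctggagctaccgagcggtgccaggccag
TRIB3 (chr20:381045-381324, plus strand): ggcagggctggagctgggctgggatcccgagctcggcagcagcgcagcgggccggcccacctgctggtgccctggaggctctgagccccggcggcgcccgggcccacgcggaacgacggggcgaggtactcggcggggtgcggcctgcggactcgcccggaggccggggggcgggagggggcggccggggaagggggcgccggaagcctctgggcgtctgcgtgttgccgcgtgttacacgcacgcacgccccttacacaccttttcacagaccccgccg
SLC7A1 (chr13:29595659-29595938, minus strand): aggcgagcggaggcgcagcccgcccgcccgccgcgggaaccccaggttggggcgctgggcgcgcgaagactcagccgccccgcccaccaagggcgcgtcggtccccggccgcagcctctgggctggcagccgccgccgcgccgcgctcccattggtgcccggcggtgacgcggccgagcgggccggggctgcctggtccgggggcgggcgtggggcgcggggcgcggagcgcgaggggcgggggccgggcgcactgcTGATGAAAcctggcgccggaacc
SLC1A5 (chr19:46784785-46785064, minus strand): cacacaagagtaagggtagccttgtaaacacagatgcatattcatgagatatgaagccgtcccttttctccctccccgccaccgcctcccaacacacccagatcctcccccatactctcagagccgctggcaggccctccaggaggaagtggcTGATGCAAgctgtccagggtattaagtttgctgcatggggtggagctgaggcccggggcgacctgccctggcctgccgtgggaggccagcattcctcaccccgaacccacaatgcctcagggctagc
SLC1A4 (chr2:64989149-64989428, plus strand): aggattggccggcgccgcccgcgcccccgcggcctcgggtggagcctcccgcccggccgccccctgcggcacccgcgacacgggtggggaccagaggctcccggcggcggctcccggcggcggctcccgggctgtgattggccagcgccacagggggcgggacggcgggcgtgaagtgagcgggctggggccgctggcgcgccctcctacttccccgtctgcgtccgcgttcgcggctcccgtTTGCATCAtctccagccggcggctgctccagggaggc
In ASNS the core began 68 bases before the start of its window, in SLC1A5 97 bases before and in CHAC1 209 bases before it. In SLC7A1 it lay just after the start. These starts are RefSeq starts and need not be the first of the gene. The printed windows of CHAC1, TRIB3, SLC1A5 and SLC1A4 lay wholly within the gene as GENCODE places it. That of SLC1A5 is 1 of 3. TRIB3 had no core in any of its 3 windows, the first of which is shown.

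Dexamethasone was followed by opposite changes among genes of this response from 2 h on. At 3 h, averaged over the lines, the amino acid transporter SLC7A5, the pseudokinase TRIB3 and both proline enzymes were higher than at 0 h, and DDIT3, STC2, the cystine transporter SLC7A11 and ASNS were lower. ATF4 RNA did not pass the test at any time. With edgeR's quasi-likelihood test and Benjamini-Hochberg adjustment over all genes tested, 0 of the 37 genes were called at 1 h (9 at an unadjusted p under 0.05, and 0 with DESeq2), 12 at 2 h (9 higher and 3 lower) and 21 at 3 h (9 higher and 12 lower). At 1 h, 3332 of the 23651 genes tested had an unadjusted p under 0.05. Of all genes tested, 1.28% were called at 1 h, 28.8% at 2 h and 40.3% at 3 h, 20.9% as higher and 19.3% as lower at 3 h and 16.2% and 12.6% at 2 h. The members' counts were thus 56.8% of the list at 3 h and 32.4% at 2 h. The median log2 change of the 37 was 0.11 at 2 h and -0.05 at 3 h, against -0.03 for all genes at both times. Since all 3 comparisons use the same 0 h libraries, they are not independent of each other. Against the 1 h libraries, 22 genes were called at 3 h (8 higher and 14 lower), where 50.6% of all genes were (25% higher and 25.6% lower). When any 1 library was left out, the count was 9 to 17 at 2 h and 15 to 21 at 3 h.

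**Figure D1:**
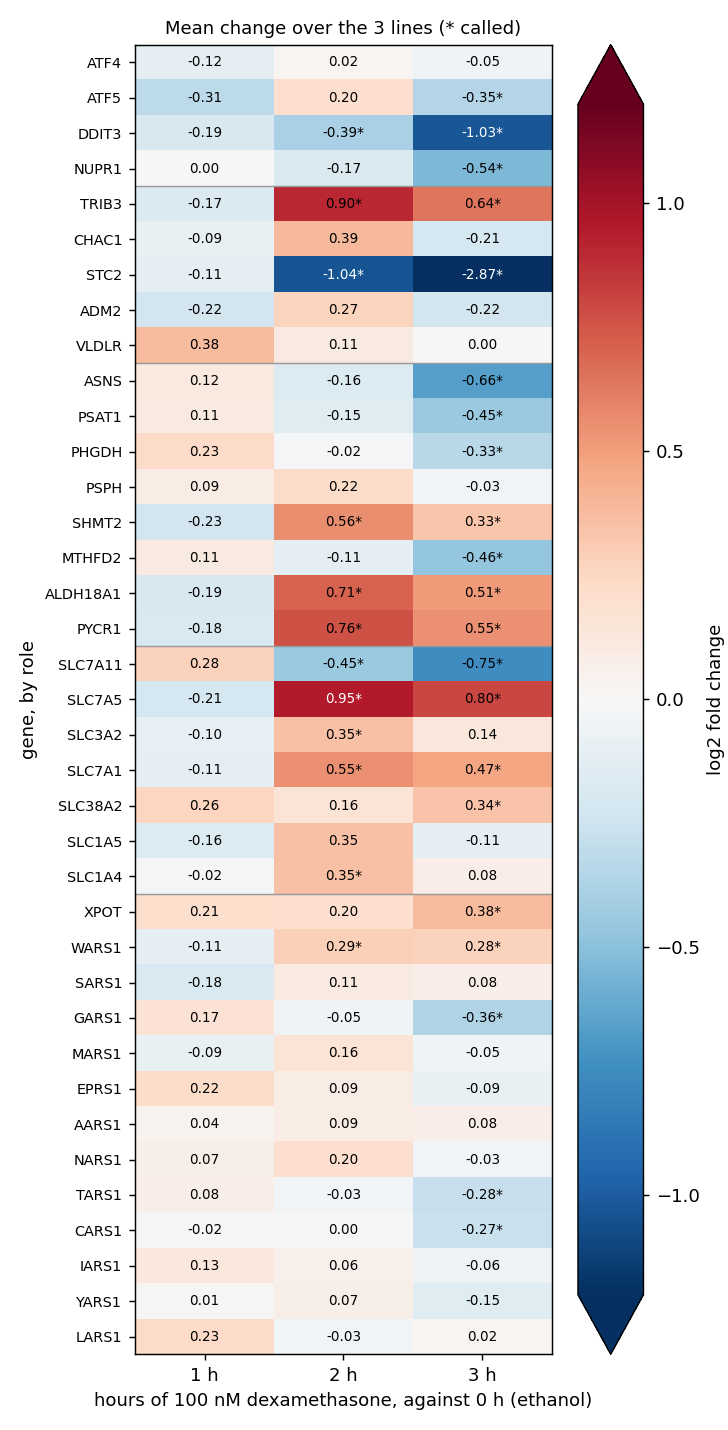
Log2 fold change of the 37 genes (rows, grouped by role: transcription factors, effectors, synthesis, transporters, tRNA charging) after 1, 2 and 3 h of dexamethasone against 0 h, as the mean of the 3 lines. Red is higher, blue is lower, the colour scale ends are passed by STC2, and an asterisk marks an adjusted p under 0.05: 0 genes at 1 h, 12 at 2 h and 21 at 3 h.

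In single lines, each with 2 libraries a group, fewer genes passed. At 1 h 0 of the 37 were called in any line (7 in wt and 0 in SoF and Ctrl at an unadjusted p under 0.05, and 0 with DESeq2), against 0.156%, 0.165% and 0.0465% of all genes in wt, SoF and Ctrl. Of the 23651 genes tested, 2602, 1645 and 423 had an unadjusted p under 0.05 in these lines. At 2 h there were 4 in wt (4 higher and 0 lower), TRIB3, ALDH18A1, PYCR1 and SLC7A5, where 4.6% of all genes were called (3.39% higher and 1.22% lower). SoF had 3 at 2 h, ALDH18A1 and SLC7A5 higher and STC2 lower, where 5.68% of all genes were called (4.2% higher and 1.48% lower). Ctrl had 3, ALDH18A1 and SLC7A5 higher and SLC7A11 lower, against 7.95% (5.58% and 2.38%). At 3 h the wt line had 6 genes called (3 higher and 3 lower), where 10.7% of all genes were (6.6% and 4.12%). The SoF line had 8 (4 higher and 4 lower), against 19.3% (11.2% and 8.11%), and the Ctrl line 8 (2 higher and 6 lower), against 14.2% (8.58% and 5.6%). DDIT3, STC2 and SLC7A11 fell and SLC7A5 and ALDH18A1 rose in all 3 lines. Fitted separately by line, SLC7A11 in wt and ALDH18A1 in wt and Ctrl did not pass, and ALDH18A1 in Ctrl also did not without the filter on low counts or with DESeq2 size factors. Some of these counts rest on single libraries: the wt count was 2 without wt 0 h replicate 2 or wt 3 h replicate 2, the SoF count 3 without SoF 0 h replicate 2, 4 without SoF 3 h replicate 1 and 5 without SoF 3 h replicate 2, and the Ctrl count 2 without Ctrl 0 h replicate 2 or either Ctrl 3 h library. Over the 6 libraries at 3 h and the 6 at 0 h, 4 genes did not overlap upward (ALDH18A1, PYCR1, SLC7A5 and SLC7A1) and 5 downward (DDIT3, NUPR1, STC2, MTHFD2 and TARS1), where 9.89% and 6.76% of all genes did so.

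Replicates of a group sometimes differed over nearly the whole list. At 2 h in the wt line, 35 of the 37 genes were higher in replicate 2, by a median log2 of 0.41, and so were 12 of 12 endoplasmic reticulum stress genes of the ATF6 and XBP1 arms, by 0.73. At 0 h in the SoF line, 32 genes were higher in replicate 1, with a median log2 of -0.46 for replicate 2 against replicate 1, and -0.41 for the stress genes. The median over all genes in these pairs was between -0.02 and -0.01. In Ctrl at 2 h, 35 of 37 genes and 12 of 12 stress genes were higher in replicate 2, by medians of 0.15 and 0.40. In SoF at 1 h 33 genes were higher in replicate 1 (median -0.25), and in wt at 1 h 31 were higher in replicate 2 (median 0.29). In the other 7 groups 15 to 30 genes were higher in replicate 2, with medians of -0.10 to 0.11. At 0 h replicate 1 was above replicate 2 in all 3 lines for many genes. Among them were ATF4, ATF5, TRIB3, ADM2, SHMT2, ALDH18A1, PYCR1, SLC7A5, SLC3A2, SLC7A1, SLC1A5 and SLC1A4. These include genes given below as higher at 3 h than at 0 h. The part of this in the results below was not tested, and for the 3 h calls given below the libraries on which they turned are named with the range of changes over the 24 fits that each left out 1 library.

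The transcription factors were the one group in which every call was downward, with 3 of 4 genes lower at 3 h in the mean of the lines. Of all genes, 19.3% were called lower at that time. ATF4 itself was the highest of the 37 per length of exon, at a mean of 226 RPKM (CPM per kilobase of exon). ATF4 in the wt line gave 794 and 666 CPM at 0 h, 658 and 543 at 1 h, 738 and 642 at 2 h and 595 and 672 at 3 h. In SoF, ATF4 gave 643 and 468 CPM at 0 h, 519 and 500 at 1 h, 590 and 572 at 2 h and 505 and 609 at 3 h. For Ctrl, ATF4 was at 570 and 514 CPM at 0 h, 512 and 602 at 1 h, 513 and 625 at 2 h and 540 and 586 at 3 h. The 0 h and 3 h ranges overlapped over the 6 libraries each, and the change at 3 h was log2 -0.05 ± 0.10 (SE, adjusted p = 0.723).

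DDIT3 (CHOP), a factor that ATF4 induces and that promotes death under lasting stress, dropped furthest in this group. DDIT3 in the wt line gave 44.5 and 45.5 CPM at 0 h, 34.4 and 48.5 at 1 h, 37.2 and 47.7 at 2 h and 26.8 and 22.9 at 3 h. In SoF, DDIT3 gave 51.2 and 33.2 CPM at 0 h, 40 and 30.4 at 1 h, 29.4 and 25.2 at 2 h and 19.5 and 18.7 at 3 h. For Ctrl, DDIT3 was at 45.1 and 42 CPM at 0 h, 31.2 and 45.2 at 1 h, 27.2 and 36.5 at 2 h and 20.6 and 20.6 at 3 h. All 6 libraries at 3 h were below all 6 at 0 h, with the 1 h and 2 h values between or overlapping. The mean change was log2 -0.39 ± 0.13 (SE, adjusted p = 0.0231) at 2 h and log2 -1.03 ± 0.13 (SE, adjusted p = 1.44e-06) at 3 h. By line, wt had log2 -0.86 ± 0.22 (SE, adjusted p = 0.0125), SoF had log2 -1.15 ± 0.22 (SE, adjusted p = 0.00094) and Ctrl had log2 -1.08 ± 0.22 (SE, adjusted p = 0.00237). The wt call was lost without wt 0 h replicate 2 or wt 3 h replicate 2 (range -0.96 to -0.74). Exons of other genes lie under 39.6% of the exon bases of DDIT3, MARS1 among them on the opposite strand and 1 gene on the same strand. If the counting used strand, only reads shared with the same-strand gene could not be assigned with certainty. The part of the 39.6% on each strand was not separated.

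ATF5, a relative of ATF4 that is also controlled at translation, was uneven between replicates at 0 h. ATF5 in the wt line gave 59.5 and 34.1 CPM at 0 h, 32.9 and 30.6 at 1 h, 59.8 and 48.6 at 2 h and 31.7 and 32.3 at 3 h. In SoF, ATF5 gave 48.8 and 29.5 CPM at 0 h, 33.4 and 27.5 at 1 h, 48.9 and 40.4 at 2 h and 29.6 and 30.2 at 3 h. For Ctrl, ATF5 was at 47.7 and 36.2 CPM at 0 h, 41.1 and 42.5 at 1 h, 46.5 and 51.2 at 2 h and 36.6 and 41.6 at 3 h. The highest library of each line was at 2 h, and the 3 h and 0 h libraries overlapped. At 3 h the change was log2 -0.35 ± 0.13 (SE, adjusted p = 0.0343), and this call was lost in 8 of 24 fits that each left out 1 library (range -0.46 to -0.20). They were the fits without replicate 1 of wt, SoF or Ctrl at 0 h, without either 3 h library of wt or SoF, and without Ctrl 3 h replicate 1.

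NUPR1, a small chromatin protein induced by stress, changed late. NUPR1 in the wt line gave 17.9 and 17.3 CPM at 0 h, 17.4 and 18.1 at 1 h, 12.8 and 18 at 2 h and 10.8 and 12.6 at 3 h. In SoF, NUPR1 gave 22.4 and 15 CPM at 0 h, 21.9 and 14 at 1 h, 19.5 and 13.1 at 2 h and 14.1 and 11.4 at 3 h. For Ctrl, NUPR1 was at 16.9 and 19.3 CPM at 0 h, 15.7 and 21.5 at 1 h, 15.5 and 17.8 at 2 h and 11.5 and 14.1 at 3 h. Its 3 h libraries lay below its 0 h libraries in every line. The change was log2 -0.54 ± 0.14 (SE, adjusted p = 0.00407), kept in all 24 fits without 1 library, and it passed in no line alone. An RNA on the same strand shares 16.5% of its exon bases.

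The effectors, proteins through which the response acts on signalling, redox state or other cells, gave 1 rise and 1 fall at 3 h among 5 genes. These were 40% of the group, close to the 40.3% of all genes called. TRIB3, a pseudokinase that binds ATF4 and limits its activity, was higher at 2 h and at 3 h. TRIB3 in the wt line gave 24.7 and 19.3 CPM at 0 h, 19.8 and 28.5 at 1 h, 36.7 and 68.1 at 2 h and 39.3 and 34.9 at 3 h. In SoF, TRIB3 gave 26.5 and 11.5 CPM at 0 h, 16.2 and 12.8 at 1 h, 35.8 and 33.6 at 2 h and 36.8 and 36 at 3 h. For Ctrl, TRIB3 was at 40.5 and 27.4 CPM at 0 h, 29 and 28.6 at 1 h, 46.7 and 57.5 at 2 h and 41.3 and 40.2 at 3 h. The highest library was at 2 h in wt and Ctrl, and in SoF the 2 h and 3 h libraries ran from 33.6 to 36.8 CPM. The mean change was log2 0.90 ± 0.17 (SE, adjusted p = 0.000289) at 2 h and log2 0.64 ± 0.17 (SE, adjusted p = 0.00369) at 3 h. At 3 h it passed in SoF, at log2 0.92 ± 0.29 (SE, adjusted p = 0.0291), but not in wt, at log2 0.75 ± 0.29 (SE, adjusted p = 0.0992), or in Ctrl, at log2 0.25 ± 0.28 (SE, adjusted p = 0.601). The SoF call was lost without SoF 0 h replicate 2, which held 11.5 CPM, or without either SoF 3 h library, with changes of 0.46 to 1.67.

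CHAC1, an enzyme that breaks down glutathione, varied widely between replicates. CHAC1 in the wt line gave 12.4 and 14.9 CPM at 0 h, 12.6 and 25.7 at 1 h, 14.2 and 38.5 at 2 h and 13 and 11.5 at 3 h. In SoF, CHAC1 gave 23 and 10.7 CPM at 0 h, 15.6 and 7.14 at 1 h, 18.8 and 15.9 at 2 h and 13.2 and 17.6 at 3 h. For Ctrl, CHAC1 was at 26.9 and 20.3 CPM at 0 h, 18.1 and 23.9 at 1 h, 21.2 and 32.6 at 2 h and 18.4 and 19.9 at 3 h. In wt at 2 h the replicates were 14.2 and 38.5 CPM, the widest gap, in the pair in which 35 of the 37 genes were higher in replicate 2. The change at 3 h was log2 -0.21 ± 0.23 (SE, adjusted p = 0.508), with an error larger than the difference. Of the markers of this response, TRIB3 rose at 3 h, ASNS fell and CHAC1 did not pass.

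STC2, a secreted glycoprotein, was the lowest of the 37 per length, at a mean of 0.327 RPKM and 2 to 39 counts a library. STC2 in the wt line gave 1.82 and 1.77 CPM at 0 h, 2.34 and 2.01 at 1 h, 0.882 and 1.21 at 2 h and 0.149 and 0.349 at 3 h. In SoF, STC2 gave 2.87 and 3.11 CPM at 0 h, 2.31 and 1.76 at 1 h, 0.648 and 1.63 at 2 h and 0.242 and 0.258 at 3 h. For Ctrl, STC2 was at 2.71 and 3.42 CPM at 0 h, 2.35 and 3.54 at 1 h, 1.16 and 1.92 at 2 h and 0.764 and 0.45 at 3 h. Every 3 h library was below every 0 h library. Summed over the 6 libraries each, 187 counts at 0 h stood against 27 at 3 h, a ratio of counts per total of 0.143 with an exact 95% interval of 0.0916 to 0.214 that covers counting error only. By line the ratio ran from 0.0819 (SoF) through 0.143 (wt) to 0.205 (Ctrl). The fitted mean change was log2 -1.04 ± 0.23 (SE, adjusted p = 0.00165) at 2 h and log2 -2.87 ± 0.28 (SE, adjusted p = 5.96e-08) at 3 h, and no single library left out ended a call of STC2 at 3 h. The peptide hormone ADM2, at log2 -0.22 ± 0.17 (SE, adjusted p = 0.303), and the lipoprotein receptor VLDLR, at log2 0.00 ± 0.16 (SE, adjusted p = 0.999), did not pass.

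**Figure D2:**
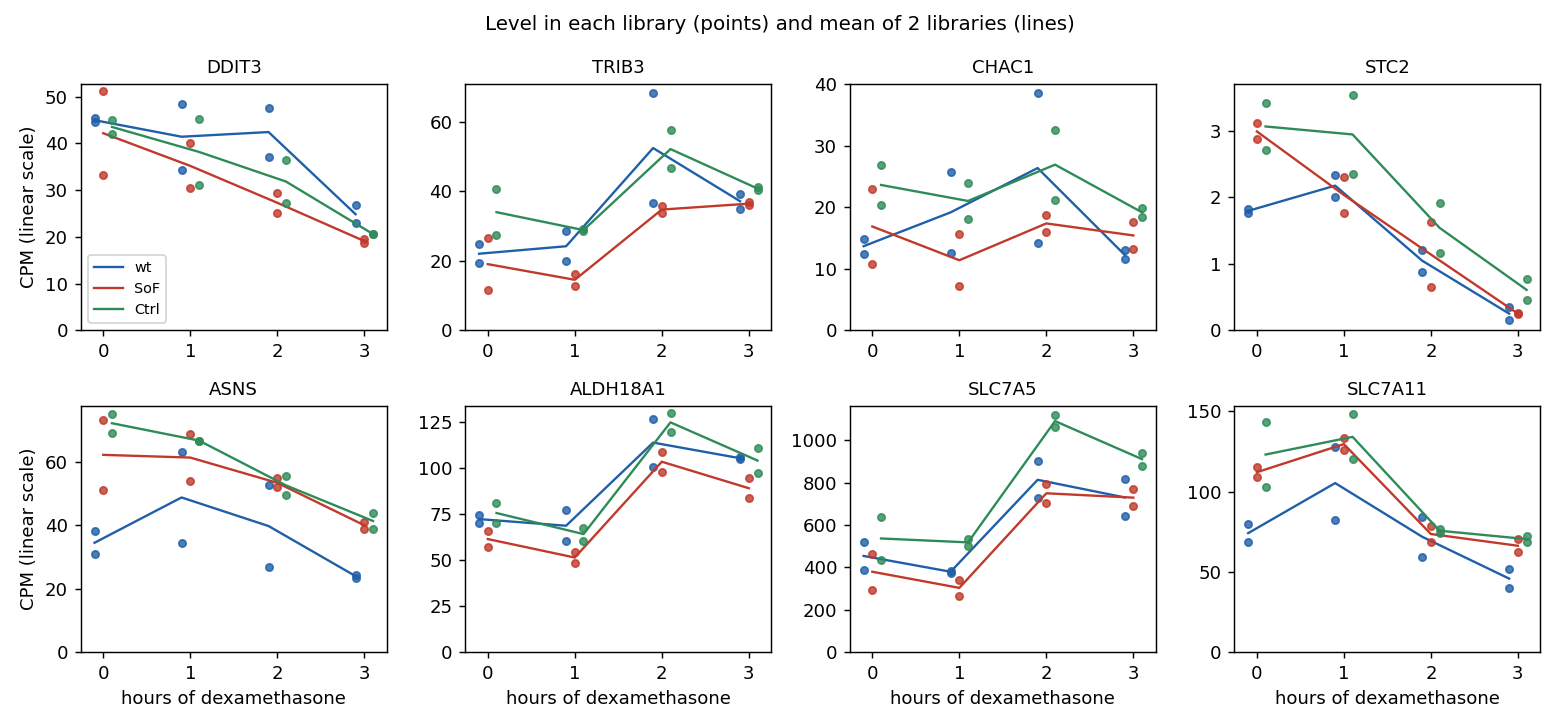
Level of 8 genes (panels, CPM on a linear scale from 0) against hours of dexamethasone, with a point for each library and a line through the mean of the 2 libraries, in wt (blue), SoF (red) and Ctrl (green). DDIT3, STC2, ASNS and SLC7A11 end lower at 3 h, TRIB3, ALDH18A1 and SLC7A5 end higher after a step at 2 h, and CHAC1 shows the spread between replicates, 14.2 and 38.5 CPM in wt at 2 h.

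Enzymes of amino acid and one-carbon synthesis were called in both directions at 3 h, 3 higher and 4 lower of 8. That was 87.5% of the group, where 40.3% of all genes were called. Asparagine synthesis (ASNS), the serine enzymes PSAT1 and PHGDH and the mitochondrial folate enzyme MTHFD2 fell, while both proline enzymes (ALDH18A1 and PYCR1) and the mitochondrial serine hydroxymethyltransferase SHMT2 rose. The eighth, PSPH, which completes serine synthesis, was at log2 -0.03 ± 0.13 (SE, adjusted p = 0.887). ASNS differed by line as well as by time. ASNS in the wt line gave 30.8 and 38.1 CPM at 0 h, 34.4 and 63 at 1 h, 26.8 and 52.6 at 2 h and 24.4 and 23.5 at 3 h. In SoF, ASNS gave 73.2 and 51 CPM at 0 h, 68.6 and 53.9 at 1 h, 51.9 and 54.7 at 2 h and 38.8 and 41.1 at 3 h. For Ctrl, ASNS was at 69.1 and 75 CPM at 0 h, 66.6 and 66.6 at 1 h, 49.5 and 55.5 at 2 h and 38.9 and 43.7 at 3 h. Within each line the 3 h libraries lay below the 0 h libraries, but the wt libraries at 0 h were below even the 3 h libraries of the other lines. The change at 3 h was log2 -0.66 ± 0.15 (SE, adjusted p = 0.00108), kept in all 24 fits without 1 library, and in Ctrl alone it was log2 -0.80 ± 0.25 (SE, adjusted p = 0.0344), a call lost whichever Ctrl library at 0 or 3 h was left out, while the change stayed between -0.88 and -0.72. A long noncoding RNA on the same strand shares 49.3% of the exon bases of ASNS, and reads there could not be told apart.

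ALDH18A1 makes the first committed intermediate of proline from glutamate, and its step came between 1 and 2 h. ALDH18A1 in the wt line gave 74.7 and 70.1 CPM at 0 h, 60.4 and 77.2 at 1 h, 101 and 127 at 2 h and 105 and 106 at 3 h. In SoF, ALDH18A1 gave 65.8 and 57.3 CPM at 0 h, 48.3 and 54.7 at 1 h, 98.2 and 109 at 2 h and 83.7 and 94.7 at 3 h. For Ctrl, ALDH18A1 was at 81.3 and 70.1 CPM at 0 h, 67.8 and 60.7 at 1 h, 120 and 130 at 2 h and 97.5 and 111 at 3 h. Every 3 h library was above every 0 h library of all lines. The mean change was log2 0.71 ± 0.09 (SE, adjusted p = 3.01e-06) at 2 h and log2 0.51 ± 0.09 (SE, adjusted p = 6.6e-05) at 3 h. It passed at 3 h in wt (log2 0.55 ± 0.15, SE, adjusted p = 0.0205), SoF (log2 0.53 ± 0.15, SE, adjusted p = 0.0162) and Ctrl (log2 0.46 ± 0.15, SE, adjusted p = 0.0431), and the Ctrl call was lost in 14 of 24 fits without 1 library, with changes of 0.36 to 0.59. It was kept in the 10 fits without a library of wt 1 h, wt 2 h, SoF 0 h or SoF 2 h or without replicate 1 of Ctrl 0 h or Ctrl 1 h. The wt call was lost whichever wt library at 0 or 3 h was left out (0.52 to 0.58), and the SoF call without replicate 2 of SoF 0 h or SoF 3 h (0.44 to 0.65). The partner enzyme PYCR1, which completes proline, had log2 0.76 ± 0.13 (SE, adjusted p = 0.000206) at 2 h and log2 0.55 ± 0.13 (SE, adjusted p = 0.00232) at 3 h, and exons of 2 other genes, 1 on each strand, lie under 29.7% of its exon bases.

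MTHFD2, of mitochondrial one-carbon metabolism, fell late. MTHFD2 in the wt line gave 246 and 257 CPM at 0 h, 263 and 301 at 1 h, 236 and 290 at 2 h and 202 and 195 at 3 h. In SoF, MTHFD2 gave 325 and 255 CPM at 0 h, 350 and 273 at 1 h, 261 and 273 at 2 h and 190 and 227 at 3 h. For Ctrl, MTHFD2 was at 323 and 347 CPM at 0 h, 357 and 347 at 1 h, 273 and 283 at 2 h and 225 and 228 at 3 h. All 3 h libraries were below all 0 h libraries. The change at 3 h was log2 -0.46 ± 0.09 (SE, adjusted p = 0.000226). PSAT1 followed at log2 -0.45 ± 0.14 (SE, adjusted p = 0.0153) and PHGDH at log2 -0.33 ± 0.11 (SE, adjusted p = 0.0207), and neither had been called at 2 h. SHMT2 was at log2 0.56 ± 0.13 (SE, adjusted p = 0.00211) at 2 h and log2 0.33 ± 0.13 (SE, adjusted p = 0.0404) at 3 h, the latter lost in 7 of 24 fits without 1 library, namely wt 0 h replicate 2, either wt 3 h library, and replicate 2 of SoF 0 h, SoF 3 h, Ctrl 0 h and Ctrl 3 h (range 0.23 to 0.47). The PSAT1 call was lost in 3 such fits (wt 0 h replicate 2, wt 3 h replicate 2 or SoF 0 h replicate 1), with a range of -0.56 to -0.30. The PHGDH call was lost in those and without Ctrl 3 h replicate 1, with a range of -0.40 to -0.23.

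Among the 7 transporters, 3 rose and 1 fell at 3 h, and at 2 h 4 rose and 1 fell. These were 57.1% of the group at 3 h and 71.4% at 2 h, where 40.3% and 28.8% of all genes were called. SLC7A5 (LAT1), which imports leucine and other large neutral amino acids, had the largest rise of the 37 in the mean of the lines at 2 h and at 3 h. SLC7A5 in the wt line gave 518 and 390 CPM at 0 h, 375 and 384 at 1 h, 725 and 901 at 2 h and 641 and 819 at 3 h. In SoF, SLC7A5 gave 464 and 295 CPM at 0 h, 340 and 267 at 1 h, 794 and 705 at 2 h and 688 and 770 at 3 h. For Ctrl, SLC7A5 was at 639 and 434 CPM at 0 h, 500 and 536 at 1 h, 1060 and 1120 at 2 h and 880 and 941 at 3 h. The 0 h and 1 h libraries of all lines stayed at or below 639 CPM and the 2 h and 3 h libraries at or above 641 CPM. Changes in the mean of the lines were log2 0.95 ± 0.12 (SE, adjusted p = 4.55e-06) at 2 h and log2 0.80 ± 0.12 (SE, adjusted p = 1.77e-05) at 3 h, and at 3 h the lines had log2 0.69 ± 0.21 (SE, adjusted p = 0.0363) in wt, log2 0.94 ± 0.21 (SE, adjusted p = 0.00297) in SoF and log2 0.76 ± 0.21 (SE, adjusted p = 0.0163) in Ctrl. Without SoF 0 h replicate 2 the SoF call was lost, without replicate 2 of wt at 0 h or 3 h the wt call, and without Ctrl 0 h replicate 2 or either Ctrl 3 h library the Ctrl call. Over the 24 fits the changes were 0.65 to 1.31 in SoF, 0.50 to 0.89 in wt and 0.51 to 1.08 in Ctrl.

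SLC7A11, the light chain that exchanges cystine for glutamate, went the other way. SLC7A11 in the wt line gave 68.3 and 79.9 CPM at 0 h, 82.5 and 128 at 1 h, 59.4 and 84.3 at 2 h and 51.7 and 39.9 at 3 h. In SoF, SLC7A11 gave 109 and 115 CPM at 0 h, 133 and 126 at 1 h, 68.8 and 78.3 at 2 h and 62.2 and 70.3 at 3 h. For Ctrl, SLC7A11 was at 103 and 143 CPM at 0 h, 148 and 120 at 1 h, 74.3 and 76.9 at 2 h and 68.3 and 72.5 at 3 h. The highest values were at 1 h in every line, and within each line the 3 h libraries lay below those at 0 h. The mean change was log2 0.28 ± 0.11 (SE, adjusted p = 0.269) at 1 h, log2 -0.45 ± 0.12 (SE, adjusted p = 0.00545) at 2 h and log2 -0.75 ± 0.12 (SE, adjusted p = 2.28e-05) at 3 h. Its 3 h calls were lost without replicate 2 of wt at 0 h or 3 h in wt, without SoF 0 h replicate 2 or SoF 3 h replicate 1 in SoF, and without Ctrl 0 h replicate 2 or either Ctrl 3 h library in Ctrl. The changes over these fits were -0.88 to -0.51 in wt, -0.85 to -0.68 in SoF and -1.01 to -0.55 in Ctrl.

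SLC3A2, the heavy chain that pairs with both SLC7A5 and SLC7A11, was called at 2 h, at log2 0.35 ± 0.11 (SE, adjusted p = 0.0162), and not at 3 h, at log2 0.14 ± 0.11 (SE, adjusted p = 0.32). The cationic amino acid transporter SLC7A1 had log2 0.47 ± 0.11 (SE, adjusted p = 0.00158) and the sodium-coupled neutral transporter SLC38A2 log2 0.34 ± 0.10 (SE, adjusted p = 0.0121) at 3 h, the latter lost without wt 3 h replicate 1 (range 0.25 to 0.43). SLC38A2 was second to ATF4 per length, at 172 RPKM, and SLC7A5 came next at 133 RPKM. In wt SLC38A2 ran from 862 and 899 CPM at 0 h to 1090 and 1580 CPM at 3 h, while in Ctrl it was 903 and 1040 CPM at 0 h and 955 and 998 CPM at 3 h. The glutamine transporter SLC1A5, at log2 -0.11 ± 0.13 (SE, adjusted p = 0.537), and its relative SLC1A4, at log2 0.08 ± 0.13 (SE, adjusted p = 0.63), were not called at 3 h.

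Of 13 genes of tRNA export and charging, 2 were higher and 3 lower at 3 h. These were 38.5% of the group, close to the 40.3% of all genes called, and the largest of their changes was 0.38 on the log2 scale. GARS1, the glycyl-tRNA synthetase, was the clearest fall. GARS1 in the wt line gave 183 and 193 CPM at 0 h, 206 and 280 at 1 h, 177 and 236 at 2 h and 176 and 156 at 3 h. In SoF, GARS1 gave 237 and 237 CPM at 0 h, 275 and 258 at 1 h, 209 and 251 at 2 h and 168 and 195 at 3 h. For Ctrl, GARS1 was at 265 and 320 CPM at 0 h, 295 and 278 at 1 h, 245 and 252 at 2 h and 211 and 203 at 3 h. In every line both 3 h libraries were below both 0 h libraries, and in wt the libraries of these times lay close together (156 to 193 CPM). The change was log2 -0.36 ± 0.09 (SE, adjusted p = 0.00401) in the mean of the lines and log2 -0.50 ± 0.16 (SE, adjusted p = 0.0414) in Ctrl, where the call was lost in 11 of 24 fits without 1 library, with changes of -0.61 to -0.36. These were the fits without a wt 3 h, SoF 1 h, Ctrl 1 h, Ctrl 2 h or Ctrl 3 h library or without Ctrl 0 h replicate 2.

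XPOT, the exportin that carries tRNA out of the nucleus, rose. XPOT in the wt line gave 67.1 and 76.7 CPM at 0 h, 90.5 and 108 at 1 h, 76.4 and 122 at 2 h and 113 and 93.5 at 3 h. In SoF, XPOT gave 85.6 and 76.1 CPM at 0 h, 93 and 79.2 at 1 h, 85.5 and 89.5 at 2 h and 99.7 and 118 at 3 h. For Ctrl, XPOT was at 96.6 and 101 CPM at 0 h, 107 and 100 at 1 h, 101 and 101 at 2 h and 110 and 114 at 3 h. The rise was within each line, from 67.1 and 76.7 CPM to 113 and 93.5 CPM in wt, and 0 h libraries of Ctrl overlapped with 3 h libraries of wt and SoF. Its mean change was log2 0.38 ± 0.10 (SE, adjusted p = 0.00427), kept in all 24 fits without 1 library. The tryptophanyl enzyme WARS1 had log2 0.28 ± 0.10 (SE, adjusted p = 0.0323) (lost in 8 of those 24 fits, range 0.24 to 0.34, and without the filter on low counts), the threonyl enzyme TARS1 log2 -0.28 ± 0.09 (SE, adjusted p = 0.0203) and the cysteinyl enzyme CARS1 log2 -0.27 ± 0.09 (SE, adjusted p = 0.0184) (both lost in 5 of 24, with ranges of -0.31 to -0.24 and -0.31 to -0.23). The WARS1 fits were those without either 3 h library of wt or SoF, or without replicate 2 of wt 0 h, SoF 0 h, Ctrl 0 h or Ctrl 3 h. The TARS1 and CARS1 fits were those without replicate 1 of SoF 0 h or SoF 3 h, without replicate 2 of Ctrl 0 h or Ctrl 3 h, and without wt 3 h replicate 2 for TARS1 and replicate 1 for CARS1. The other 8 (SARS1, MARS1, EPRS1, AARS1, NARS1, IARS1, YARS1 and LARS1) ran from -0.15 to 0.08. Of the 7 genes of this group with a CARE core in a window, 3 were called at 3 h (GARS1, TARS1 and CARS1, all lower) and 4 were not. That share is close to the 40.3% of all genes called, and YARS1 and LARS1 had no window to search. A link between the core and the change was not tested.

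**Figure D3:**
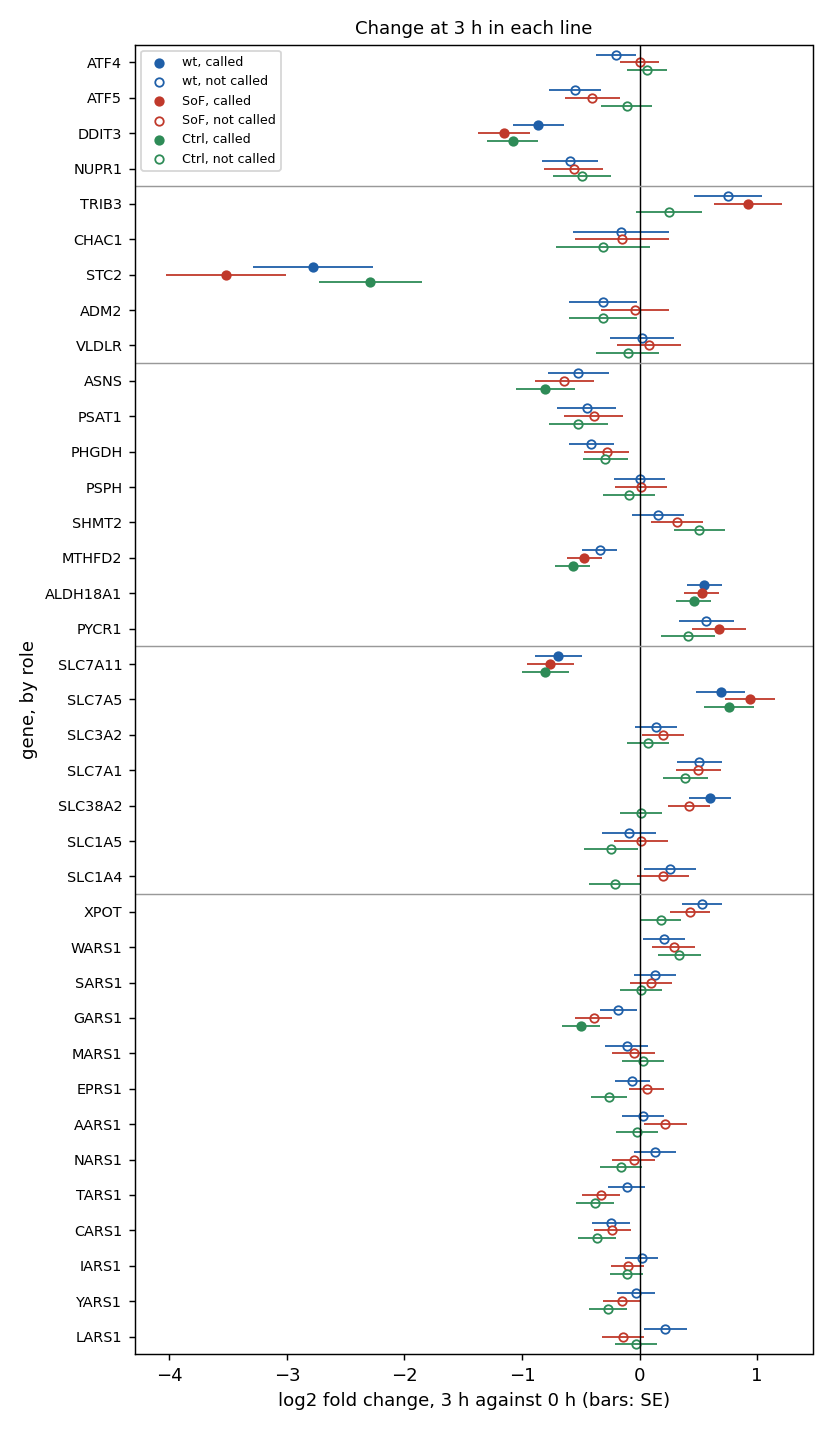
Log2 fold change at 3 h against 0 h for the 37 genes (rows, by role) in wt (blue), SoF (red) and Ctrl (green), with bars for the standard error and filled points for an adjusted p under 0.05. DDIT3, STC2 and SLC7A11 lie left of 0 and ALDH18A1 and SLC7A5 right of it in all 3 lines with filled points.

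Other genes of the same pathways were counted by list at 3 h in the mean of the lines, where 40.3% of all genes were called, 20.9% as higher and 19.3% as lower. The shares called in either direction of the first 3 lists lay near that background. Of 15 eIF2 kinases and regulators, 4 were higher and 3 lower (46.7% called). In all 3 lines PPP1R15A (GADD34), which brings the phosphatase to eIF2, fell, at log2 -1.12 ± 0.10 (SE, adjusted p = 1.14e-08) in the mean, and EIF2B4, a subunit of the eIF2 exchange factor, rose, at log2 0.79 ± 0.11 (SE, adjusted p = 5.98e-06). Of 18 further ATF4 targets and partners, 4 were higher and 5 lower (50% called). ATF3, a repressor that ATF4 induces, fell in every line, with log2 -3.57 ± 0.16 (SE, adjusted p = 5.31e-13), and so did CTH, which makes cysteine from cystathionine, with log2 -1.52 ± 0.14 (SE, adjusted p = 3.25e-08). CEBPB, a binding partner of ATF4, rose in every line, with log2 2.45 ± 0.21 (SE, adjusted p = 7.61e-09). Among 8 other cytosolic synthetases 4 were higher and 0 lower (50% called, and 1 further gene had an unadjusted p under 0.05), and FARSA, a subunit of the phenylalanyl enzyme, rose in all 3 lines, with log2 0.79 ± 0.12 (SE, adjusted p = 1.31e-05). Of 12 endoplasmic reticulum stress genes of the ATF6 and XBP1 arms, 7 were higher and 0 lower at 3 h, with a median of 0.29, and 7 were higher at 2 h, with a median of 0.37. That was 58.3% of these 12 at 3 h, beside 40.3% of all genes called in either direction. All calls were upward both in this list and among the 8 other synthetases, where 20.9% of all genes were called higher.

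Whether the receptor mutations altered the response was asked by comparing the 3 h change between lines. At an adjusted p under 0.05, 0 of the 37 genes differed in each of the 3 pairs, by edgeR's quasi-likelihood test and by DESeq2. At an unadjusted p under 0.05 there were 0 for SoF against Ctrl, 0 for SoF against wt and 1 for Ctrl against wt, which was SLC38A2, at log2 -0.60 ± 0.26 (SE, adjusted p = 0.982). Over all genes edgeR called 3, 0 and 0 (0.0127%, 0% and 0%), and DESeq2 8, 0 and 1. Of the 23651 genes tested, 671, 558 and 845 had an unadjusted p under 0.05 with edgeR. The members' differences ran from -1.23 to 0.67 for SoF against Ctrl, -0.74 to 0.27 for SoF against wt and -0.60 to 0.49 for Ctrl against wt. Their standard errors had a median of 0.26 (0.19 to 0.85 over the pairs), so differences of the size of most changes in this list were not detectable with 2 libraries a group, and the lines are not shown to respond alike.

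Levels were also compared between lines, where few of the 37 genes passed. Comparing the lines with treatment time left out of the fit, as the study's methods did (8 libraries a line, 21122 genes tested), called 1 gene for SoF against wt, 3 for Ctrl against wt and 1 for SoF against Ctrl. These were 2.7%, 8.11% and 2.7% of the list, where 8.02%, 4.77% and 3.61% of all genes were called. They were ATF4 (log2 -0.26 ± 0.08, SE, adjusted p = 0.0404), then ASNS (log2 0.67 ± 0.19, SE, adjusted p = 0.0438), IARS1 (log2 0.27 ± 0.07, SE, adjusted p = 0.0231) and YARS1 (log2 0.33 ± 0.09, SE, adjusted p = 0.0253), and SLC3A2 (log2 -0.56 ± 0.12, SE, adjusted p = 0.00381). Of the fits that each left out 1 library, 11 of 24 lost the ATF4 call (-0.30 to -0.22), 14 the ASNS call (0.59 to 0.83), 3 the IARS1 call (0.24 to 0.30), 5 the YARS1 call (0.31 to 0.41) and 0 the SLC3A2 call. Without the filter on low counts ATF4, ASNS, IARS1 and YARS1 were not called. The ATF4 call was lost without either library of wt 0 h, wt 2 h or SoF 1 h, replicate 1 of wt 1 h or SoF 3 h, or replicate 2 of wt 3 h, SoF 0 h or SoF 2 h. The ASNS call was lost without either library of wt 0 h, wt 3 h, SoF 2 h, Ctrl 0 h, Ctrl 1 h or Ctrl 2 h, or replicate 1 of wt 1 h or wt 2 h. Wt 2 h replicate 1, wt 3 h replicate 2 and Ctrl 0 h replicate 2 ended the IARS1 call, and these and replicate 1 of wt 0 h or wt 3 h the YARS1 call. The signs ran further than the calls: 34 of 37 genes were lower in SoF than in Ctrl, against 49% of all genes, and the members share libraries and cells, so these are not 34 separate results.

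With time in the fit, as the mean of the differences at the 4 times, more genes passed. There were 8 for SoF against wt (4 higher and 4 lower), 21.6% of the list, close to the 22.1% of all genes called (11.1% higher and 11% lower). Ctrl against wt gave 12 (12 higher and 0 lower), where 13.2% were called (5.95% and 7.26%), and SoF against Ctrl gave 11 (1 higher and 10 lower), where 8.96% were (4.52% and 4.44%). ASNS, SLC7A11 and IARS1 were higher than wt in both mutant lines. ASNS was at log2 0.59 ± 0.13 (SE, adjusted p = 0.00286) in SoF and log2 0.68 ± 0.13 (SE, adjusted p = 0.00114) in Ctrl. SLC7A11 was at log2 0.37 ± 0.10 (SE, adjusted p = 0.0131) and log2 0.44 ± 0.10 (SE, adjusted p = 0.00515). LARS1 was also higher in SoF than in wt, and ATF4, DDIT3, SHMT2 and ALDH18A1 were lower. Besides ASNS, SLC7A11 and IARS1, the Ctrl line exceeded wt for STC2, PSAT1, PHGDH, MTHFD2, SLC7A5, SLC3A2, GARS1, CARS1 and YARS1. Between the mutants, SLC3A2 differed most clearly, at log2 -0.57 ± 0.09 (SE, adjusted p = 0.000249), followed by SLC7A5, at log2 -0.53 ± 0.10 (SE, adjusted p = 0.00175), and TRIB3, ADM2, PSAT1, PHGDH, ALDH18A1, SLC1A5, SLC1A4 and WARS1 were also lower in SoF. SLC38A2 was the 1 gene higher in SoF. Each pair of lines shares its libraries with the other pairs.

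SLC3A2 shows how these differences look in the libraries. SLC3A2 in the wt line gave 295 and 235 CPM at 0 h, 237 and 275 at 1 h, 337 and 399 at 2 h and 276 and 307 at 3 h. In SoF, SLC3A2 gave 289 and 194 CPM at 0 h, 225 and 192 at 1 h, 312 and 275 at 2 h and 273 and 283 at 3 h. For Ctrl, SLC3A2 was at 413 and 300 CPM at 0 h, 336 and 354 at 1 h, 403 and 476 at 2 h and 348 and 400 at 3 h. At each time both Ctrl libraries were above both SoF libraries, and the Ctrl and wt libraries did not overlap at 0, 1, 2 or 3 h. In the 0 h contrasts of the fit over all 12 groups, edgeR called 0 of the 37 genes in any pair of lines, where 0.347%, 0.309% and 0.347% of all genes were called. At an unadjusted p under 0.05 there were 6 for SoF against wt, 16 for Ctrl against wt and 6 for SoF against Ctrl. All genes were not counted at that unadjusted threshold at 0 h, so these counts have no background beside them. Same-numbered 0 h libraries deviated together in the 3 lines, and with a replicate block at 0 h there were 2 (ASNS and LARS1, higher in SoF than in wt), 4 (ASNS, SLC7A11, GARS1 and YARS1, higher in Ctrl than in wt) and 1 (SLC3A2, lower in SoF than in Ctrl), where 5.3%, 3.64% and 0.689% of all genes were called.

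The counts between lines turned on single libraries. Without wt 2 h replicate 2, whose members were high, Ctrl against wt rose from 12 to 21 genes, and without wt 2 h replicate 1 it was 7. SoF against wt was 13 without SoF 0 h replicate 1, 4 without replicate 2 of wt 3 h or SoF 3 h, and 3 without wt 0 h replicate 1, replicate 2 of SoF at 0, 1 or 2 h, or SoF 3 h replicate 1. SoF against Ctrl was 18 without SoF 0 h replicate 1, 7 without SoF 0 h, Ctrl 1 h or Ctrl 3 h replicate 2, 6 without SoF 1 h replicate 2, SoF 3 h replicate 1 or Ctrl 2 h replicate 2, and 5 without Ctrl 0 h replicate 1. Of the 12 endoplasmic reticulum stress genes, 0 were higher and 7 lower in SoF than in wt, where 11% of all genes were called lower. In Ctrl against wt 0 of them were higher and 4 lower, where 7.26% of all genes were called lower. Of the 37 genes, 12 were called higher and 0 lower in that pair, where 5.95% of all genes were called higher. By sign alone, 30 of the 37 were higher and 7 lower. The part of the stress list in these results was not tested.

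**Figure D4:**
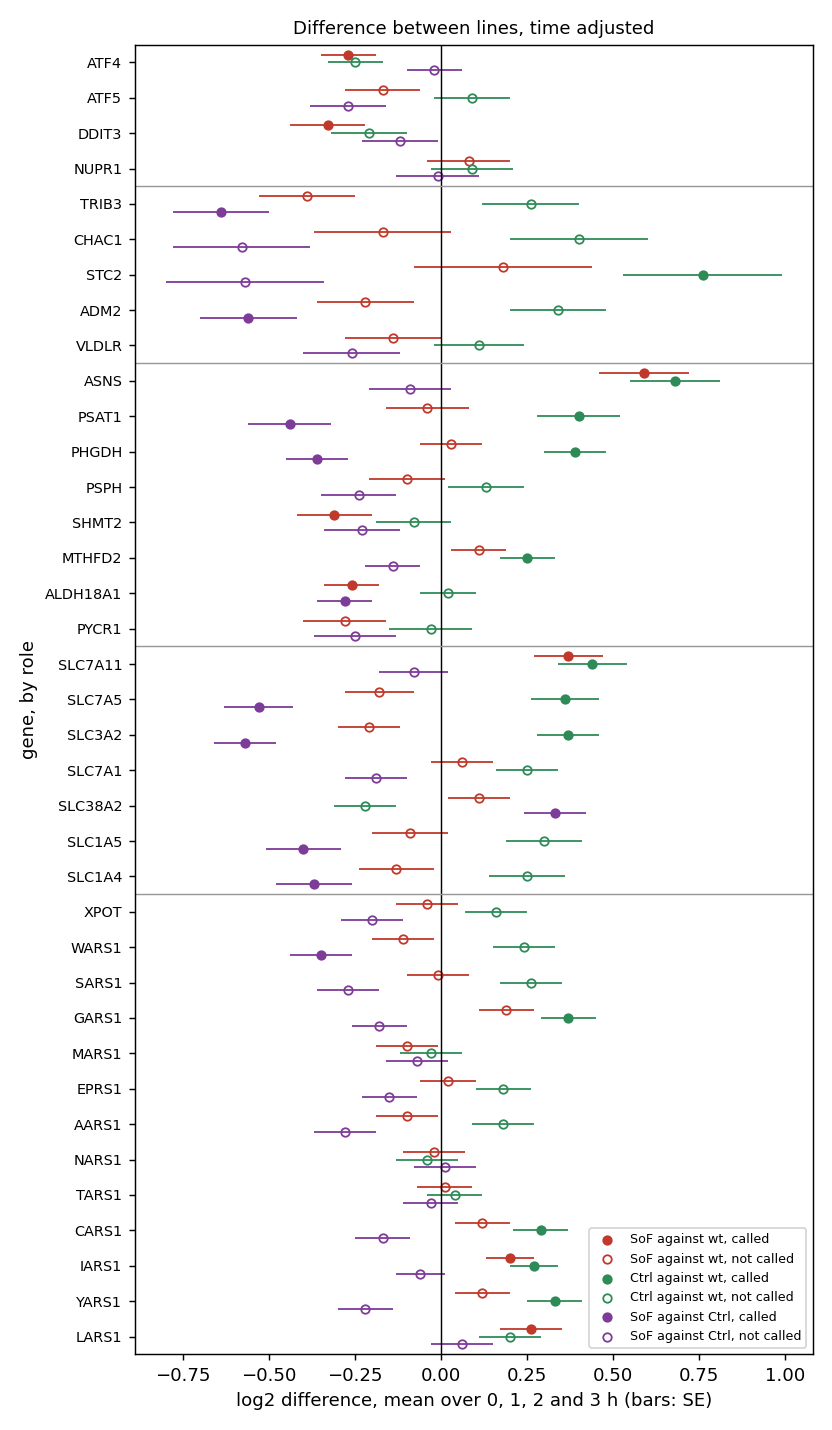
Log2 difference between lines, as the mean over 0, 1, 2 and 3 h, for the 37 genes (rows, by role): SoF against wt (red), Ctrl against wt (green) and SoF against Ctrl (purple), with bars for the standard error and filled points for an adjusted p under 0.05. The green points lie right of 0 for 30 of 37 genes and the purple points left of 0 for 34 of 37.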

How the data were processed

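Newly made RNA was measured by 4sU sequencing in 24 libraries, 2 for each of 3 lines at 4 times. The deposited values were raw counts per gene. Per the labels and methods, the authors tagged and deduplicated reads by molecular identifier with UMI-tools 1.1.2, trimmed them with Trim Galore 0.6.6, aligned them to hg38 with STAR 2.7.3a and counted them over exons with featureCounts and GENCODE. The table's name, and no method text, says the counting used strand. Gene names came from GENCODE 44 (99.7% of 61533 identifiers matched) and promoter sequences from RefSeq.

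Counts were tested as deposited with edgeR 4.0.16 in R 4.3.3 (filterByExpr with a minimum count of 10 and a minimum total of 15, TMM, quasi-likelihood F test), and p-values were adjusted by Benjamini-Hochberg over all genes tested, with calls at an adjusted p under 0.05. Changes over time came from 1 fit of 12 groups of line and time (23651 genes), with contrasts of group means and no covariate. Lines were compared in 1 fit of 3 groups of 8 libraries that left time out, as in the study (21122 genes), and also as the mean difference over the 4 times in the former fit. The SE is the log2 fold change divided by the root of the F statistic. CPM are counts scaled to the TMM-corrected library total, and RPKM divide them by exon length. DESeq2 1.42.0 was run as an alternative. The procedure was also run on simulated data with 200 changed genes, fewer than were called at 3 h in any line. That run does not show how the procedure behaves where as many genes change as here. Total counts were 8106036 to 15820806 a library, and with 2 libraries a group the spread of each group was pooled over all groups.

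The members, pathway lists, motifs and tests were chosen with earlier results of these data known. Values in every library are printed for ASNS, CHAC1, TRIB3, ATF4, ATF5, DDIT3 and the 2 genes of each role group with the smallest p in the mean of the lines at 3 h. SLC3A2 was added after its values were seen. Other pathway genes are named where called at 3 h in all 3 lines. Replicate numbers paired the libraries of the lines at 0 h (correlations of deviations from the group means of 0.394 to 0.568 in 3 of 3 pairs) but not the groups as a whole.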

Additional observations from a re-analysis of the deposited data

How the results depend on the processing

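Each count and each gene called at 3 h was recomputed with DESeq2, with DESeq2 size factors in edgeR, without the filter on low counts, with a replicate block and without each library in turn. Separate fits were run only for single lines and for response differences, not for the mean of the lines or the levels between lines. No gene called at 3 h reversed its direction. The counts at 1 h and the counts of response differences between lines stayed at 0 in all of these, and those of the mean of the lines at 2 h and 3 h stayed within 1.5 times. Without the filter, the counts at 2 h were 8 in wt, 8 in SoF and 7 in Ctrl, against 4, 3 and 3. With separate fits per comparison, wt at 3 h had 3 and Ctrl at 2 h had 5. Of the 43 values of genes called at 3 h, DESeq2 kept all, its size factors lost 1 (ALDH18A1 in Ctrl), no filter lost 3 (ALDH18A1 in Ctrl, MTHFD2 in SoF and WARS1 in the mean of the lines) and separate fits lost 5 of 22 (ALDH18A1 in wt and Ctrl, SLC7A11 and SLC38A2 in wt and MTHFD2 in SoF).

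With time left out, DESeq2 called 3 genes for SoF against wt, 6 for Ctrl against wt and 4 for SoF against Ctrl, and without the filter the first and second were 0. With edgeR and time adjusted, the counts were 8, 12 and 11. For the 0 h contrasts of the fit over 12 groups they were 0, 0 and 0. With a replicate block at 0 h, a choice made after seeing the data, they were 2, 4 and 1. The time-adjusted counts were recomputed under these alternatives by a choice made after seeing the data.

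Leaving out 1 library at a time gave 0 to 9 genes in wt, 1 to 5 in SoF and 0 to 5 in Ctrl at 2 h, 2 to 8, 3 to 10 and 2 to 8 at 3 h, 9 to 17 and 15 to 21 in the mean of the lines at 2 and 3 h, and 18 to 22 at 3 h against 1 h. At 2 h, the wt count was 0 without replicate 2 of wt 0 h or wt 2 h and 9 without wt 2 h replicate 1. The SoF count at 2 h was 1 without SoF 0 h replicate 2 or SoF 2 h replicate 1 and 5 without SoF 0 h replicate 1. For Ctrl at 2 h it was 0 without Ctrl 0 h replicate 2, 1 without Ctrl 2 h replicate 2 and 5 without Ctrl 0 h replicate 1. Between lines with time left out, the ranges were 0 to 4 (SoF against wt), 0 to 7 (Ctrl against wt) and 1 to 3 (SoF against Ctrl), and time adjusted 3 to 13, 7 to 21 and 5 to 18. With time left out, Ctrl against wt was 7 without wt 2 h replicate 2, 6 without wt 1 h replicate 2, 1 without replicate 1 of wt 0 h or wt 3 h, and 0 without wt 2 h replicate 1, wt 3 h replicate 2 or Ctrl 0 h replicate 2. SoF against wt was 4 without wt 1 h replicate 2, 2 without wt 2 h replicate 2 or either SoF 3 h library, and 0 without either wt 0 h library, replicate 1 of wt 1 h or wt 2 h, wt 3 h replicate 2, SoF 0 h replicate 2, either SoF 1 h library or SoF 2 h replicate 2. SoF against Ctrl was 3 without wt 2 h replicate 2 and 2 without SoF 0 h replicate 1. Where a group kept 1 library, that library was assumed to vary like the other groups. The causes were not tested.

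The replicate number did not pair the groups as a whole, but paired the 0 h groups of the 3 lines (0.394 to 0.568, 3 of 3 above 0.1): of pairs of groups, deviations of same-numbered libraries correlated above 0.1 in 1 of 6 in wt, 5 of 6 in SoF, 3 of 6 in Ctrl and 12 of 48 across lines. With a replicate block per line, SoF at 2 h had 5 genes, and with the replicate block the mean of the lines had 13 genes at 2 h and 21 at 3 h. The block ended none of the calls of single genes. A block per line gives no time-adjusted difference between lines and was not run there.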
